A study of Mus musculus with 4 samples.

Results

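The genes described here are 10 glucose transporter genes, *Slc2a1*, *Slc2a2*, *Slc2a4*, *Slc2a6*, *Slc2a8*, *Slc2a9*, *Slc2a10*, *Slc2a12*, *Slc5a1* and *Slc5a2*. They were chosen by gene symbol, as 8 members of the facilitative Slc2a (GLUT) family, without *Slc2a3*, *Slc2a5*, *Slc2a7* and *Slc2a13*, together with a pair of sodium-coupled Slc5a (SGLT) transporters, and they are 10 of the 24347 gene rows listed for each sample.

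RNA-seq was performed on embryoid bodies (EBs), the cell aggregates formed by mouse embryonic stem cells (mESCs) as they differentiate. EBs of wild-type mESCs (samples WT 1 and WT 2) were compared with EBs of mESCs lacking the promoter of *Gm11549*, which was cut out with CRISPR/Cas9 (samples promoter KO 1 and promoter KO 2). *Gm11549* encodes the micropeptide NEMEP, and the study asked whether it acts on glucose uptake during mesendoderm differentiation. All 4 samples are labelled as strain 129/Ola and were taken on day 3 after LIF had been withdrawn, from EBs kept in serum medium on bacterial plates that carried no gelatin, without further treatment. For the vessel, the paper's methods name an ultra-low attachment dish instead. The promoter KO lines were grown from single sorted cells. Whether the 2 promoter KO samples come from 2 clones or from 1 is not stated, so a property of a clone and an effect of the deletion cannot be told apart. The samples of each genotype are called biologically independent, but separate cultures are not stated in the labels or methods, and p-values then measure only the spread between these samples, which may be technical.

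Facilitative GLUT proteins let glucose pass the membrane down its gradient, and the family members differ in affinity, in substrate and in whether they sit at the cell surface or on inner membranes. SGLT proteins instead carry glucose together with sodium and can move it uphill, in the absorbing epithelia of gut and kidney. GLUT1 and GLUT3 are the transporters best known for glucose supply of the early mouse embryo.

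Levels are given in FPKM, the number of fragments per kilobase of transcript at a common total of mapped fragments. The values are thus divided by transcript length and can be set side by side between genes. The depth, estimated from the lowest values of genes with a single annotated transcript at an assumed fragment length of 200 bases, was about 24700000 fragments for WT 1, 21900000 for WT 2, 21600000 for promoter KO 1 and 20200000 for promoter KO 2. For WT 2 the estimate was 21100000 at 100 bases and 22900000 at 300 bases, but 10400000 at an assumed length of 0. At that length the other samples had 22800000, 19600000 and 17900000, so the fragment numbers of WT 2 depend most on this assumption. The targeted gene *Gm11549* (chr3:36515057-36521813 in the GENCODE M21 annotation of GRCm38, minus strand) had 0.750 FPKM in WT 1 and 0.522 FPKM in WT 2, was listed at 0 in promoter KO 1 and had 0.0659 FPKM in promoter KO 2. Both promoter KO samples thus lay below both WT samples.

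The samples are labelled as mesendoderm cells derived from ES cells. The 9 mesendoderm markers summed to 790.6 and 1019.6 FPKM in WT samples 1 and 2, against 154 and 325 FPKM in promoter KO samples 1 and 2. Their most abundant gene, the T-box factor *T*, had 306 and 448 FPKM in WT against 50.5 and 127 FPKM in promoter KO. At an adjusted p under 0.05 (limma with Benjamini-Hochberg adjustment), 5 of the 9 markers fell in promoter KO, against 1.89% of all tested genes, and 0 rose, against 1.68%. The pluripotency markers summed to 3169, 2971, 4845 and 3894 FPKM in the same order of samples, with *Pou5f1*, the gene of the stem cell factor OCT4, at 1499, 1188, 1522 and 1545 FPKM, and of the 9 genes 1 was higher and 1 lower at the same threshold. Mesendoderm markers were thus present in the WT samples beside abundant pluripotency transcripts, and they were less abundant in the samples of the promoter KO. Markers of visceral endoderm summed to 11.9 and 9.77 FPKM in WT against 33.8 and 39.8 FPKM in promoter KO, with *Amn* as their most abundant gene (2.33, 1.14, 14.4 and 15.1 FPKM), and 2 of 6 genes were higher and 0 lower, leaving out 2 tested genes that reached the filter (below) in promoter KO alone. *Rbp4*, the most abundant of these markers in WT, differed the other way (3.66 and 4.44 FPKM in WT against 2.45 and 2.80 FPKM in promoter KO, adjusted p = 0.112). For parietal endoderm the sums were 104 and 130.5 FPKM in WT against 259.7 and 325 FPKM in promoter KO, with the matrix gene *Sparc* leading (46.0, 59.3, 110.9 and 134 FPKM), and 5 of the 7 tested genes were higher and 0 lower. These marker lists differed between the same samples as the transporters below. Their part in the transporter levels was not tested, and in bulk samples fewer cells of a type and less RNA per cell cannot be told apart.

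Summed transporter expression was lower in the promoter KO. The 10 genes added up to 439 and 600.5 FPKM in WT samples 1 and 2, against 279 and 351 FPKM in promoter KO samples 1 and 2. Both promoter KO samples were below both WT samples, and WT 2 stood highest. Mean sums of 519.8 ± 114 FPKM for WT and 315 ± 51.1 FPKM for promoter KO (SD, n = 2 each) put promoter KO at 60.6% of WT, a log2 ratio of −0.72. An exact two-sided permutation test of 2 samples against 2 cannot give less than p = 0.333, and it gave p = 0.333 for this sum. Of all FPKM in a sample, the 10 genes took 0.0648% and 0.0862% in WT and 0.0414% and 0.0517% in promoter KO.

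Nearly all of the sum was *Slc2a1*. It made up 96.3% and 97.0% in WT samples 1 and 2, against 96.3% and 96.5% in promoter KO samples 1 and 2. These shares overlapped between the genotypes, and the difference of −0.206 percentage points between the means was smaller than the SD of 0.549 between the WT samples. Without WT 2 the difference was 0.182 percentage points, the opposite direction. *Slc2a8* took 2.89%, 2.31%, 2.79% and 2.64% in the same order, also overlapping, with a difference of 0.114 percentage points between the means. Together the 2 genes held 99.1%, 99.3%, 99.1% and 99.2%. The genes other than *Slc2a1* and *Slc2a8* together came to 3.75 and 3.97 FPKM in WT against 2.44 and 2.89 FPKM in promoter KO.

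**Figure D1:**
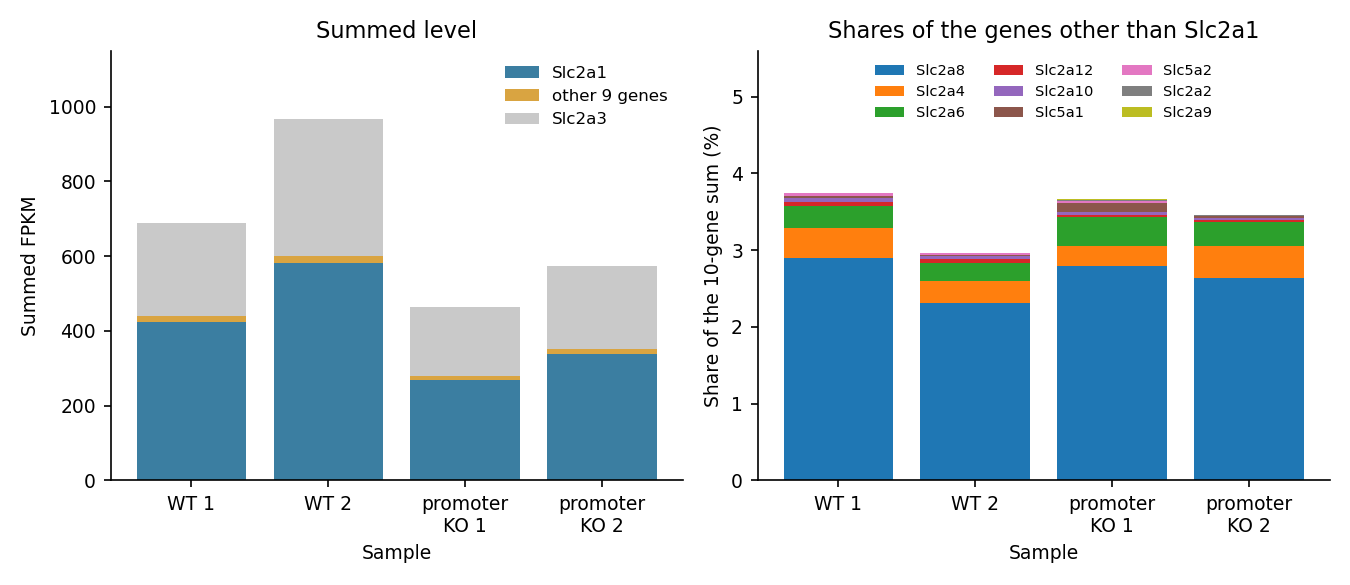
Summed FPKM of *Slc2a1*, of the other 9 genes and of *Slc2a3* in each sample (left), and the share in percent of the 10-gene sum taken by each gene other than *Slc2a1* (right). The bars of promoter KO 1 and promoter KO 2 are lower than those of both WT samples, while *Slc2a8* takes between 2.31% and 2.89% of the sum in every sample.

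Among the smaller shares, *Slc2a6* took 0.276% and 0.235% of the sum in WT and 0.376% and 0.315% in promoter KO, so its share was higher in both promoter KO samples, by 0.0901 percentage points on average, although its FPKM was not. The mean share of *Slc2a4* was 0.345% in WT and 0.339% in promoter KO, a difference of −0.00609 percentage points with overlapping samples. The mean share was 0.0604% in WT and 0.0295% in promoter KO for *Slc2a12*, a difference of −0.0308 percentage points. For *Slc2a10* it was 0.0455% and 0.0264%, a difference of −0.0191 percentage points, and the samples of *Slc2a12* and *Slc2a10* did not overlap between the genotypes. *Slc5a2* had mean shares of 0.0319% and 0.0177%, a difference of −0.0142 percentage points. The shares of these 3 genes were thus lower in promoter KO, at levels of few fragments. The share of *Slc5a1* was 0.0158% in WT and 0.0702% in promoter KO, 0.0543 percentage points more, most of it from promoter KO 1 (0.114%). *Slc2a9* had 0.00297% and 0.00761%, a difference of 0.00464 percentage points with overlapping samples, and *Slc2a2* had 0 in WT and 0.0129% in promoter KO. The last 6 genes together thus carried a small fraction of 1% of the transcripts in every sample.

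With *Slc2a3* in the sum, *Slc2a1* made up 61.3% and 60.3% in WT and 57.9% and 59.1% in promoter KO. *Slc2a3* took 36.4% and 37.9% in WT and 39.9% and 38.8% in promoter KO. The samples of the genotypes did not overlap in either share, and the share of *Slc2a1* was 2.27 percentage points lower in promoter KO on average, written −2.27 as promoter KO minus WT (exact two-sided permutation p = 0.333, the smallest possible). The FPKM ratio of *Slc2a1* to *Slc2a3* was 1.69 and 1.59 in WT and 1.45 and 1.52 in promoter KO. In WT the order of the 10 levels was *Slc2a1*, *Slc2a8*, *Slc2a4*, *Slc2a6*, *Slc2a12*, *Slc2a10*, *Slc5a2*, *Slc5a1*, *Slc2a9* and *Slc2a2*, and only the last pair of neighbours overlapped. In promoter KO the first 4 places were held by the same genes in the same order. *Slc2a4* and *Slc2a6* overlapped there, as did each pair of neighbours in the order *Slc5a1*, *Slc2a12*, *Slc2a10*, *Slc5a2* and *Slc2a2*, so the order of these low levels did not exceed the spread of the samples.

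**Figure D2:**
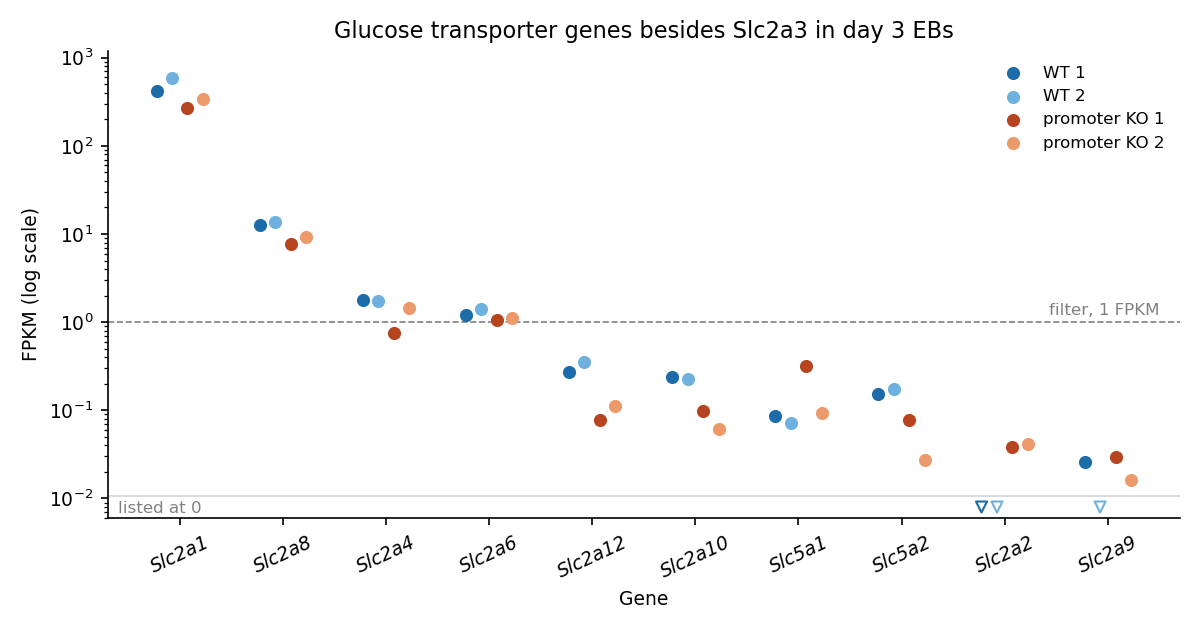
FPKM of each of the 10 genes in the 4 samples, on a log axis and ordered by mean level, with values listed at 0 drawn as open triangles below the grey line. *Slc2a1* lies between 269 and 583 FPKM, *Slc2a8* between 7.78 and 13.9 FPKM, and 6 genes stay under 1 FPKM in every sample.

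A gene was tested when at least 2 of the 4 samples reached 1 FPKM, which 11941 genes did. Log2 fold changes are differences in mean log2(FPKM + 1), promoter KO minus WT, and the pseudocount of 1 makes the changes of low genes smaller. The filter was reached in the promoter KO samples alone by 166 genes, of which 35 were called higher and 0 lower (21.1%), and in the WT samples alone by 165, of which 0 were called higher and 9 lower (5.45%), so these genes are left out of the counts of calls in lists. Without them 1.43% of tested genes were higher and 1.87% lower. Of the 10 transporter genes 4 were tested, *Slc2a1*, *Slc2a4*, *Slc2a6* and *Slc2a8*, and 6 were not. Past an adjusted p of 0.05 in limma were 0 of the 4, against 427 of all tested genes (3.58%), of which 226 were lower in promoter KO (1.89%). At an unadjusted p under 0.05, 2 of the 4 were lower, *Slc2a1* and *Slc2a8*, against 15.6% of all tested genes. All 4 had both promoter KO samples below both WT samples, as 32.4% of the tested genes did, and 0 had them above, against 32.9%. Over the 10 genes, this held for 7, against 26.6% of the 18215 genes that were above 0 FPKM in at least 1 sample. The groups were separate in the other direction in 2, *Slc2a2* and *Slc5a1*, against 29.6%, and they overlapped in *Slc2a9*. The median log2 fold change of the 4 tested genes was −0.50, and that of all tested genes was 0.0042. The count of 427 depended on single samples: it was 0 without WT 2, 0 without promoter KO 1, 175 without WT 1 and 486 without promoter KO 2, and in the 2 fits that called any gene, 0 transporter genes passed.

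*Slc2a1* encodes GLUT1, which serves basal glucose uptake in most cells and is the main glucose transporter of the blood-brain barrier. It was at 423 and 583 FPKM in WT samples 1 and 2, against 269 and 339 FPKM in promoter KO samples 1 and 2. WT 2 was the highest sample and promoter KO 1 the lowest, and the gap of the genotypes, from 423 to 339 FPKM, was narrower than the distance between the WT samples. By level it ranked 212th and 152nd of the 24347 rows in WT and 353rd and 262nd in promoter KO. The log2 fold change was −0.71 (95% interval from −1.15 to −0.28, adjusted p = 0.0711, limma). The estimate ranged from −0.95 without WT 1 to −0.48 without WT 2. *Slc2a3*, the other abundant transporter gene, was at 251, 366, 185 and 223 FPKM in the same order of samples. Markers of erythroid cells summed to 1.04, 1.28, 0.954 and 1.44 FPKM, with 0 of 6 genes tested, and their most abundant gene *Klf1*, an erythroid transcription factor, did not exceed 0.654 FPKM.

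**Figure D3:**
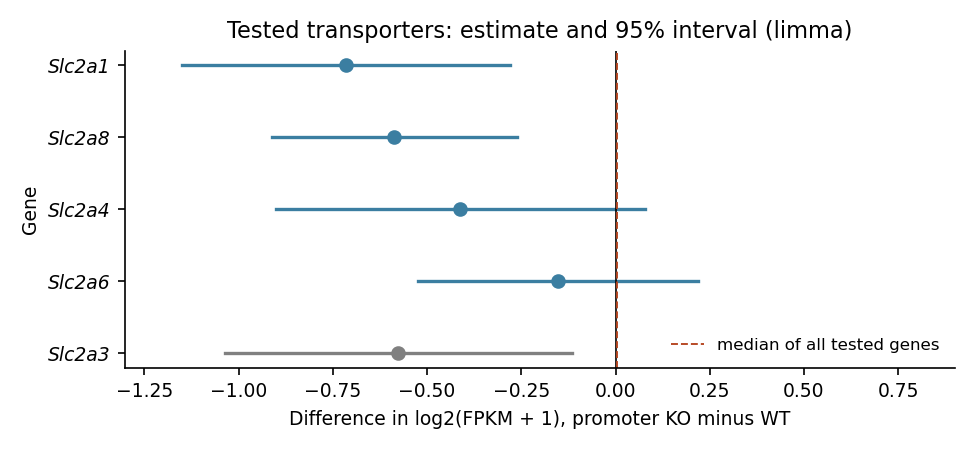
Difference in log2(FPKM + 1) between promoter KO and WT for the 4 tested genes and, in grey, *Slc2a3*, with 95% intervals from limma; the dashed line is the median of all tested genes at 0.0042. The intervals of *Slc2a1*, *Slc2a8* and *Slc2a3* lie below 0, those of *Slc2a4* and *Slc2a6* include it, and the adjusted p of each of the 5 genes was above 0.05.

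*Slc2a8* encodes GLUT8, which is held on inner membranes by a dileucine signal and is known from the blastocyst. It was at 12.7 and 13.9 FPKM in WT samples 1 and 2, against 7.78 and 9.28 FPKM in promoter KO samples 1 and 2. The WT samples lay close together and both promoter KO samples lay below them, at 64.2% of WT on average. The log2 fold change was −0.59 (95% interval from −0.91 to −0.26, adjusted p = 0.0630, limma), and it ranged from −0.70 to −0.47 with each sample left out in turn. *Slc2a1* exceeded *Slc2a8* by 33.3, 42.0, 34.5 and 36.6 times in FPKM in the same order of samples. This ratio overlapped between the genotypes (exact two-sided permutation p = 1, in a test that cannot give less than 0.333).

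The sequences before the start of *Slc2a1* and *Slc2a8* are shown because these are the 2 genes of the 10 with an unadjusted p under 0.05 and they carry nearly all of the summed level. RefSeq promoter sequences (GRCm38.p6) were matched by symbol for 8 of the 10 genes, not for *Slc2a4* and *Slc5a2*, and the 240 bases from position 250 to position 11 before the annotated start were searched on both strands. Below, each sequence runs 5′ to 3′ on the strand of its gene, and capitals mark the matches to 3 kinds of motif, each also as its reverse complement. They are the core of hypoxia-inducible factor (HIF) sites, in the forms ACGTG or, with G in first place, GCGTG, further the E-box CACGTG of MYC family factors, and the GC box GGGCGG of SP1. An E-box also holds the first HIF core on both strands. The *Slc2a1* sequence lies at chr4:119108495-119108734 on the plus strand and the *Slc2a8* sequence at chr2:32982094-32982333 on the minus strand. The end of the *Slc2a1* sequence lies past the start that GENCODE gives, which is upstream of the RefSeq start.
Slc2a1: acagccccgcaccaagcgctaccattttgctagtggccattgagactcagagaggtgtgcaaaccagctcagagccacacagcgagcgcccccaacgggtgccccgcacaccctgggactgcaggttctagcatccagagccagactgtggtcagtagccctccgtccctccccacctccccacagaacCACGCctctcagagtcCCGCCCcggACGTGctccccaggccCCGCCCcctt
Slc2a8: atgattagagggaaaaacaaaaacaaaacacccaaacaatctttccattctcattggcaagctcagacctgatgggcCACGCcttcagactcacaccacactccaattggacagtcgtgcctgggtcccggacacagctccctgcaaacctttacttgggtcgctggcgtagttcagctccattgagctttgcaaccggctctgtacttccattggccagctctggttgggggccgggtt
The *Slc2a1* sequence held both HIF cores, 1 of each form, and 2 GC boxes, and the *Slc2a8* sequence held 1 HIF core, of the form that begins with G. Such matches were not particular to these genes. *Slc5a1*, which was higher in promoter KO, held both HIF cores, the first 2 times within 1 E-box and the second 1 time. *Slc2a6* held the second form 4 times and 1 GC box, and *Slc2a10* held 1 GC box. *Slc2a2*, *Slc2a9* and *Slc2a12* held none of these motifs. Of 32851 promoter sequences of the same length, 15.9% held the HIF core that begins with A and 27.2% the other form. An E-box was found in 5.69% and a GC box in 31.3% of them. The CCAAT box, not capitalised here, matched 4 times over both strands in the *Slc2a8* sequence, where a pair of these matches overlap. It did not occur in the *Slc2a1* sequence, and 33.0% of all promoters held it. The TATA box, searched as TATAAA, occurred in neither and in 12.1% of all promoters. The share of G and C was 65.4% in *Slc2a1* and 52.5% in *Slc2a8*, against a median of 52.1%. These matches describe letters in a short window, and the known hypoxia-responsive enhancer of *Slc2a1* lies further upstream.

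By position in the genome the genes share little. In the GENCODE M21 annotation of GRCm38, *Slc2a1* lies at chr4:119108711-119137983 on the plus strand, with a longest coding transcript of 3260 bases in 10 exons. *Slc2a8* (chr2:32972990-32982083, minus strand, 10 exons), *Slc2a6* (chr2:27021363-27027998, minus strand, 10 exons) and *Slc2a10* (chr2:165503787-165519917, plus strand, 5 exons) are on chromosome 2. *Slc5a1* (chr5:33104219-33162870, plus strand, 15 exons) and *Slc2a9* (chr5:38349273-38503143, minus strand, 12 exons) are on chromosome 5. *Slc2a2* is at chr3:28697903-28731359, *Slc2a4* at chr11:69942539-69948188, *Slc2a12* at chr10:22645011-22704285 and *Slc5a2* at chr7:128265657-128272430. Exons of 3 of the genes overlap a gene on the opposite strand, *Slc2a1* with the antisense gene *Gm12868* over 105 bases, *Slc2a12* with *Tbpl1* over 407 bases and *Slc5a2* with *BC017158* over 597 bases. The strand setting of the quantification is not given in the sources used here, so reads from these stretches cannot be assigned. *Tbpl1*, named for its overlap, was at 16.1, 15.6, 18.0 and 16.9 FPKM and *BC017158* at 5.68, 8.94, 8.03 and 7.35 FPKM, far above *Slc2a12* and *Slc5a2* in every sample.

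*Slc2a4* encodes GLUT4, the insulin-responsive transporter of muscle and fat. It was at 1.77 and 1.73 FPKM in WT samples 1 and 2, against 0.753 and 1.43 FPKM in promoter KO samples 1 and 2. Promoter KO 1 stood apart at the low end, and promoter KO 2 was closer to WT than to promoter KO 1. The log2 fold change was −0.41 (95% interval from −0.90 to 0.08, adjusted p = 0.220, limma), and without promoter KO 1 it was −0.17. Muscle markers summed to 8.70, 21.5, 4.16 and 14.7 FPKM in the same order, with *Actc1*, a muscle actin gene, leading at 3.93, 10.9, 1.10 and 7.60 FPKM, and 0 of the 3 tested genes passed, also at an unadjusted p under 0.05. Those samples overlapped between the genotypes, and promoter KO 1 was the lowest for the markers too; their part in the level of *Slc2a4* was not tested.

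*Slc2a2* encodes GLUT2, the low-affinity transporter of liver, intestine and pancreatic beta cells. Both WT samples list it at 0, and the promoter KO samples 1 and 2 had 0.0388 and 0.0419 FPKM. At the estimated depths these values stand for about 4.51 and 4.54 fragments, so the separation rests on a handful of reads. No fold change can be given against values of 0, and the gene was not tested.

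*Slc2a6* encodes GLUT6, a transporter of inner membranes. It was at 1.21 and 1.41 FPKM in WT against 1.05 and 1.11 FPKM in promoter KO. The gap between the genotypes, from 1.21 to 1.11 FPKM, was narrower than the distance between the WT samples, and the log2 fold change was −0.15 (95% interval from −0.52 to 0.22, adjusted p = 0.522, limma). The ratio of *Slc2a8* to *Slc2a6*, also a gene of inner membranes, was 10.5 and 9.82 in WT and 7.41 and 8.38 in promoter KO. The genotypes did not overlap in this ratio (exact two-sided permutation p = 0.333, the smallest possible). They did overlap in the ratio of *Slc2a8* to *Slc2a4*, which was 7.19 and 8.02 in WT and 10.3 and 6.47 in promoter KO.

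*Slc2a10* encodes GLUT10, known from arterial tortuosity syndrome, and *Slc2a12* encodes GLUT12, found in muscle, fat and other tissues. *Slc2a10* was at 0.236 and 0.224 FPKM in WT against 0.0991 and 0.0610 FPKM in promoter KO, about 19.5, 16.4, 7.16 and 4.12 fragments. *Slc2a12* was at 0.271 and 0.355 FPKM in WT against 0.0770 and 0.111 FPKM in promoter KO, about 26.6, 30.9, 6.61 and 8.86 fragments. In both genes each promoter KO sample lay below both WT samples, and the promoter KO mean was 34.8% of the WT mean for *Slc2a10* and 30.0% for *Slc2a12*, lower percentages than the 60.5% of *Slc2a1*. Neither reached the filter, so whether they differ from *Slc2a1* in relative decrease was not tested. *Slc2a9*, whose protein GLUT9 mainly carries urate, was at 0.0261 and 0 FPKM in WT samples 1 and 2, against 0.0298 and 0.0160 FPKM in promoter KO samples 1 and 2. These values stand for a few fragments at most, and the genotypes overlapped.

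The sodium-coupled transporters were close to the limit of detection. *Slc5a2*, which encodes SGLT2 of the kidney proximal tubule, was at 0.152 and 0.175 FPKM in WT against 0.0771 and 0.0273 FPKM in promoter KO, about 7.83, 7.96, 3.46 and 1.15 fragments. *Slc5a1*, which encodes SGLT1 of intestine and kidney, was at 0.0860 and 0.0726 FPKM in WT against 0.318 and 0.0922 FPKM in promoter KO, about 8.31, 6.22, 26.9 and 7.27 fragments. Promoter KO 1 alone was high in *Slc5a1*, while promoter KO 2 exceeded WT 1 by less than the WT samples differed. The 6 kidney tubule markers summed to 3.89, 3.40, 13.1 and 11.4 FPKM. Among them, *Slc22a6* and *Umod* were listed at 0 in all 4 samples, and 1 was tested, the endocytic receptor gene *Lrp2*, which visceral endoderm expresses as well. *Lrp2* rose from 3.78 and 3.29 FPKM in WT to 13.0 and 11.4 FPKM in promoter KO, a log2 difference of 1.54 (adjusted p = 0.0208, limma).

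The 5 genes whose pattern over the 4 samples was nearest to that of *Slc2a1* were *Olfm1*, *Tspan13*, *Ptprn*, *Mapk13* and *Ccl27a*. They were found among 6531 tested genes with a mean of at least 10 FPKM, by Euclidean distance between mean-centred log2(FPKM + 1) values. The distances ranged from 0.0548 for *Olfm1* to 0.0989 for *Ccl27a*, and their log2 fold changes from −0.80 (*Mapk13*) to −0.70 (*Ptprn* and *Ccl27a*), which follow from the selection by these 4 values. *Olfm1* was at 14.6 and 19.4 FPKM in WT samples 1 and 2, against 8.67 and 11.3 FPKM in promoter KO samples 1 and 2. That these genes were highest in WT 2 and lowest in promoter KO 1, like *Slc2a1*, follows from their choice as well. By the same distance *Slc2a3* came 21st (0.159) and *Slc2a8* 143rd (0.285).

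**Figure D4:**
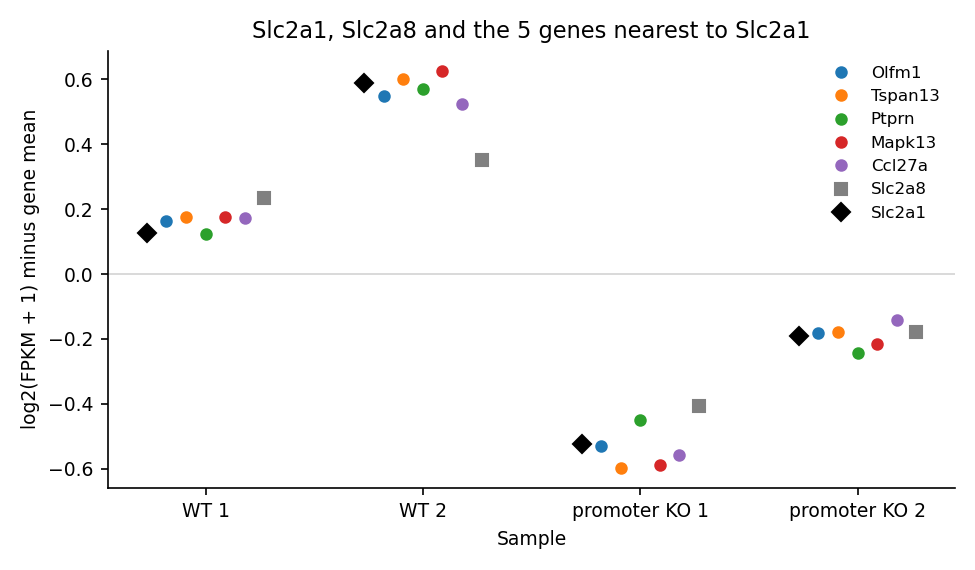
Mean-centred log2(FPKM + 1) of *Slc2a1*, of the 5 genes nearest to it and of *Slc2a8* in the 4 samples. All 7 genes are above their mean in both WT samples and below it in both promoter KO samples, and *Slc2a8* differs less between WT 1 and WT 2 than *Slc2a1* does.

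Other genes of glucose handling were taken from 6 lists. Of 9 further sugar transporter genes, all with values, 2 were tested, and 0 passed among those admitted by both genotypes, which leaves *Slc2a3*. *Slc5a11*, which encodes a sodium-coupled transporter of myo-inositol, was at 0.132 and 0.340 FPKM in WT against 2.41 and 1.49 FPKM in promoter KO. It reached the filter in the promoter KO samples alone, so no call is given. After *Slc2a3* it had the highest mean of this list, and *Slc2a5*, the fructose transporter gene, was at 0.417, 0.579, 0.459 and 0.324 FPKM, which overlap. Glucose is trapped in the cell by phosphorylation, and of 11 genes of this step and of its reversal 6 were tested, and of the 5 admitted by both genotypes 0 passed, with 1 lower at an unadjusted p under 0.05, as were 15.1% of tested genes. The hexokinase domain gene *Hkdc1* was at 0.245 and 0.0413 FPKM in WT against 1.44 and 2.12 FPKM in promoter KO, and it too reached the filter only there. The most abundant gene of the list, the hexokinase gene *Hk2*, had a log2 difference of −0.18 (adjusted p = 0.241), with 64.8 and 58.8 FPKM in WT against 56.3 and 52.6 FPKM in promoter KO, *Adpgk*, an ADP-dependent glucokinase, one of 0.03 (adjusted p = 0.888), and *G6pc3*, a glucose-6-phosphatase, one of −0.57 (adjusted p = 0.0716).

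GLUT proteins are moved between inner membranes and the surface, and 19 of 20 genes listed for this traffic had values and were tested. Of these, 0 passed an adjusted p of 0.05 in limma, 3 were lower and 2 higher at an unadjusted p under 0.05 (15.6% and 15.0% of all tested genes), and the median log2 fold change was −0.05, against 0.0042 for all tested genes. The retromer genes *Vps29* and *Vps35*, whose complex returns GLUT1 to the surface, had log2 fold changes of 0.21 (adjusted p = 0.182) and 0.33 (adjusted p = 0.0996), and *Gipc1*, which encodes a protein that binds the tail of GLUT1, had one of −0.35 (adjusted p = 0.0723). Of 14 genes of insulin, IGF and AKT signalling, all tested, 0 passed, 5 had an unadjusted p under 0.05 (3 lower, 2 higher), and the median was −0.02. The most abundant of them were *Pik3r2*, *Akt1* and *Akt2*, with log2 fold changes of 0.09, −0.14 and −0.19.

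Transcription factors known to act on *Slc2a1* were 10, all tested, and of the 9 admitted by both genotypes 0 passed an adjusted p of 0.05 in limma, with a median log2 fold change of 0.24, while an unadjusted p under 0.05 was found for 3 with higher and 0 with lower values in promoter KO, against 14.3% and 15.1% of tested genes. *Epas1*, which encodes HIF-2 alpha, was at 0.746 and 0.569 FPKM in WT against 5.47 and 5.06 FPKM in promoter KO, and reached the filter in promoter KO alone. *Hif1a* was at 29.8 and 24.5 FPKM in WT against 32.4 and 32.5 FPKM in promoter KO, a log2 difference of 0.25 (adjusted p = 0.204). *Mycn* and *Myc* had log2 fold changes of 0.85 (adjusted p = 0.0573) and 0.42 (adjusted p = 0.0981). In both genes all promoter KO samples were above all WT samples, as in 6 of the 10 factors and 32.9% of all tested genes. Any link between these factors and *Slc2a1* was not tested.

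Sodium-coupled uptake rests on the sodium pump, and of 7 genes of the pump and of partners of SGLT proteins, all tested, 1 was higher and 0 lower (1.43% and 1.87% of tested genes). *Atp1b1*, a beta subunit of the pump, rose from 11.2 and 10.2 FPKM in WT to 20.7 and 22.8 FPKM in promoter KO, a log2 difference of 0.96 (standard error 0.11, adjusted p = 0.0305, limma). *Atp1b3* and the scaffold gene *Slc9a3r1* had log2 fold changes of −0.15 and −0.08. The neuroectoderm markers, given as another possible content of EBs, summed to 67.1 and 65.4 FPKM in WT against 98.3 and 104 FPKM in promoter KO, with *Pou3f1* leading at 44.6, 40.2, 88.9 and 87.0 FPKM and 1 of 2 tested genes higher. The other tested gene, *Nes*, was at 21.6 and 24.5 FPKM in WT against 6.94 and 14.7 FPKM in promoter KO (adjusted p = 0.0831), and without *Pou3f1* the sums were 22.5, 25.2, 9.38 and 17.1 FPKM. Of the 6 markers, 5 were higher in each promoter KO sample than in either WT sample and 1 was lower in the same way, against 29.6% and 26.6% of genes above 0 FPKM in any sample.

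**Figure D5:**
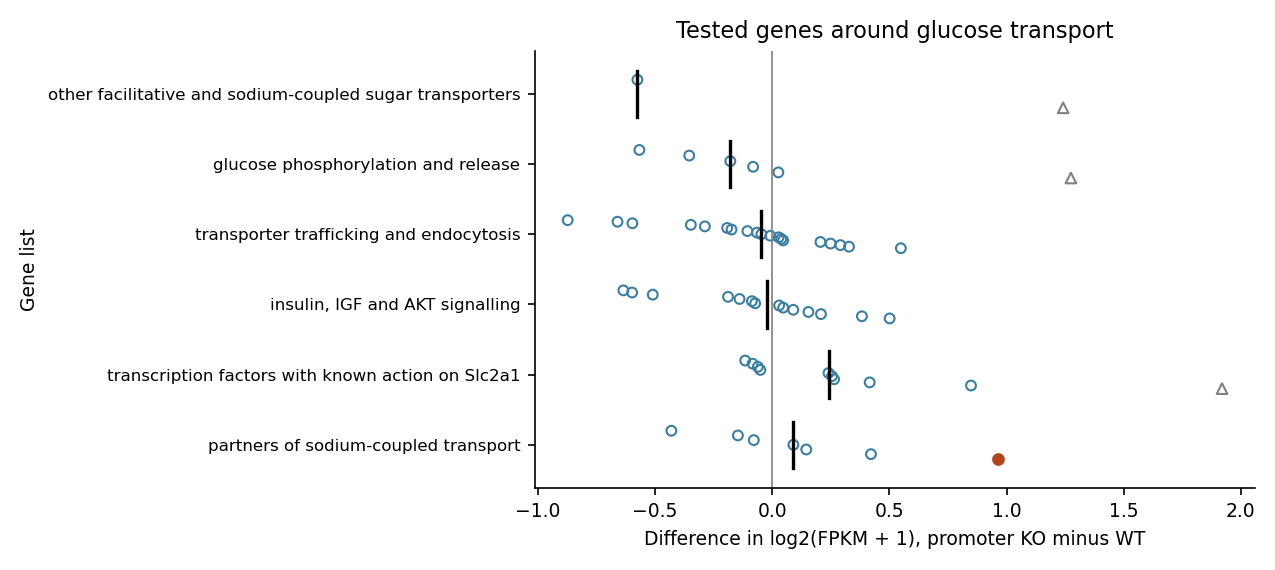
Difference in log2(FPKM + 1) between promoter KO and WT for the tested genes of 6 lists around glucose transport, with genes at an adjusted p under 0.05 filled, genes that reached the filter in promoter KO alone as grey triangles, and medians of the other genes as black bars. The 1 filled gene, *Atp1b1*, has a difference of 0.96, and the 3 triangles are *Slc5a11*, *Hkdc1* and *Epas1*.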

How the data were processed

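RNA-seq values of day 3 EBs, from 2 samples of either genotype, were used, 1 file per sample, grouped by the labels' titles. The deposited values name no unit and were taken as FPKM, normalized by the authors for transcript length and library size with Cufflinks. The methods name TopHat as the aligner and RPKM as the measure, while the submitters' processing notes name HISAT2 2.1.0, Cufflinks and Cuffnorm with mm10; which of them made these files is not given in the sources used here. Errors of alignment or of sharing reads between overlapping genes therefore pass into the values.

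From the FPKM, log2(FPKM + 1) was tested for genotype with limma 3.58.1 (R 4.3.3), using its linear model and moderated variances with a trend over intensity, in genes of at least 1 FPKM in at least 2 samples, with Benjamini-Hochberg adjustment over all 11941 tested genes. Sums, shares and ratios of FPKM were compared by exact two-sided permutation tests (scipy 1.17.1). Shares refer to the sum of the 10 genes unless *Slc2a3* is named. Approximate fragment numbers were computed from FPKM, the longest coding transcript and the estimated depth, and cover no other error. No gene of the 10 had a near-identical copy (at least 95% identity over at least 200 bases, BLAST 2.17.0) apart from the overlapping neighbours named in the text. The limma procedure was also run on simulated data in which 200 of the 11941 genes were changed. It called 100% of the log2 changes of 2 and 84% of those of 1, with 13 false calls. These changes were larger than the estimates of the tested transporters, so the simulation does not show how often changes of their size are found.

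Named genes are the 10 transporters, *Slc2a3*, *Gm11549*, from each list of glucose handling those with an adjusted p under 0.05 and up to 3 of the most abundant, from each marker list the most abundant gene and those listed at 0, and the 5 genes nearest to *Slc2a1* in pattern. Overlapping neighbours, *Rbp4*, *Nes*, *Slc2a7*, *Slc2a13*, *Slc5a4b* and *Slc5a9* were named outside this rule. The members and lists were chosen with earlier results of these data known. Alternatives were another pseudocount, other filters, limma without the trend, median centring, quantile normalization, the replicate number as a block, each sample left out, ratios without a pseudocount, TPM scaling and other sums.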

Additional observations from a re-analysis of the deposited data

How the results depend on the processing

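The direction of the log2 fold change was lower in promoter KO for *Slc2a1* and *Slc2a8* in 11 of 11 alternative fits and for *Slc2a4* and *Slc2a6* in 10 of 10, as they had no value at a filter of a mean of 5 FPKM. Their adjusted p ranged from 0.010 to 0.288 for *Slc2a1*, 0.0458 to 0.285 for *Slc2a8*, 0.103 to 0.645 for *Slc2a4* and 0.373 to 0.847 for *Slc2a6*. When the replicate number entered as a block, 2 of the 4 tested transporters passed an adjusted p of 0.05, *Slc2a1* (log2 fold change −0.71, adjusted p = 0.010) and *Slc2a8* (−0.59, adjusted p = 0.0458), against 5.59% of all tested genes that were lower, and 1202 genes passed in all; 0 passed in each other alternative, of which 3 called no gene at all. The samples share only a number, and deviations of same-numbered samples correlated at 0.0348 across 11941 genes. The 427 genes called became 0 without a filter (4059 at an unadjusted p under 0.05), 203 at a mean of 5 FPKM, 82 without the trend and 283 after median centring, and with each sample left out they ranged from 0 to 486, where the lone sample is assumed to vary like the others; the cause was not tested. Left-out samples gave −0.95 to −0.48 for *Slc2a1*, −0.70 to −0.47 for *Slc2a8*, −0.65 to −0.17 for *Slc2a4*, −0.21 to −0.09 for *Slc2a6* and −0.93 to −0.48 for the log2 ratio of the sum, which was −0.61 without *Slc2a1*. The share difference of *Slc2a1* ranged from −0.595 to 0.182 percentage points, reversed without WT 2, and was −2.27 with *Slc2a3* and −2.29 over every Slc2a row, *Slc5a1* and *Slc5a2*. Ratios of mean FPKM without a pseudocount, on the log2 scale, were −1.52 for *Slc2a10*, −1.74 for *Slc2a12*, −1.65 for *Slc5a2*, 1.37 for *Slc5a1* and 0.81 for *Slc2a9*, larger in size than with a pseudocount of 1, which at such levels outweighs the values. The 6 genes under 1 FPKM had at most about 30.9 fragments in any sample.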

Other observations

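Of the 7 further sugar transporter genes under the filter, 2 were higher in each promoter KO sample than in either WT sample, against 29.6% of all genes above 0 FPKM in any sample, 1 (*Slc5a9*) was lower in the same way, and 4 overlapped. The first 2 are described here after their values were seen. *Slc5a4b*, a relative of *Slc5a1*, had 0.189 and 0.0943 FPKM in WT samples 1 and 2, against 0.741 and 0.207 FPKM in promoter KO samples 1 and 2. As in *Slc5a1*, promoter KO 1 was the highest sample and promoter KO 2 lay close to WT 1. *Slc2a7*, a GLUT gene known from the intestine, was at 0.0889 and 0.0666 FPKM in WT against 0.135 and 0.220 FPKM in promoter KO. No test was made of either gene, and both stayed under 1 FPKM in every sample.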
